A study of Mus musculus with 2 samples.

Results

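The nuclear-encoded subunits of the mitochondrial oxidative phosphorylation system were followed in the colon of adult mice. Members were chosen by gene symbol alone: protein-coding genes named Nduf with a class letter a, b, c, s or v and a number, Sdha to Sdhd, and those beginning with Uqcr, Cox4 to Cox8 or Atp5, with mitochondrially encoded genes left out. The tables of both libraries hold 84 such genes, among 21474 protein-coding genes and 69691 features in all. The annotation has 85 genes of this kind, and its second Atp5o gene was not analysed here. By symbol, 37 genes belong to complex I, 4 to complex II, 8 to complex III, 18 to complex IV and 17 to complex V. A few symbols go beyond subunits or against later knowledge: the product of Ndufa4 is known as a subunit of complex IV, Cox7a2l encodes an assembly factor of respiratory supercomplexes, and Atp5s encodes a coupling factor. The members lie on 19 chromosomes, with the largest number, 8, on chromosome 7.

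Whole colon of C57BL/6J mice aged 8 weeks was sequenced as polyadenylated RNA in 2 libraries, numbered as biological replicates 1 and 2 of 1 group. No genotype, treatment or time differs by the labels, so the members can be described in the tissue and set against each other between the libraries. Each library held 46689262 expected counts in replicate 1 and 45966841 in replicate 2. The labels name pooled tissue of both sexes and 1 donor record for both libraries. The reads go against the pooling label: Xist, the RNA of the inactive X chromosome, had 8721 counts in replicate 1 and 12 in replicate 2, and 4 Y-linked genes summed to 0 counts in replicate 1 and 1382 in replicate 2, so the libraries do not hold the same pool of animals. The libraries also differ in tissue content. Pancreatic acinar markers had a sum of 30.5 TPM in replicate 1 and 33720 in replicate 2 (11 genes), haemoglobin and partner genes to 525 and 2998 (5 genes), and adipocyte markers to 219.9 and 474 (6 genes). The colon's own markers were close, with 24828 and 27401 TPM for the epithelium (10 of 10 detected in both) and 6870 and 6761 for smooth muscle (6 of 6). TPM, the usual unit of transcript abundance, is a level corrected for transcript length and scaled to one total per library.

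Oxidative phosphorylation couples the burning of fuel to the making of ATP in the inner mitochondrial membrane. Complexes I and II take electrons from NADH and succinate, complex III passes them from ubiquinol to cytochrome c, complex IV gives them to oxygen, and complex V, the ATP synthase, uses the resulting proton gradient. Most subunits are made from nuclear genes and imported, while a few core subunits of complexes I, III, IV and V come from the mitochondrial genome. Several positions in complex IV can be filled by partner genes with a broad or a tissue-restricted pattern. Absorptive cells of the colon are known to burn butyrate made by gut bacteria in their mitochondria.

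As a set, the subunit genes were abundant. A TPM of at least 1, the threshold for detection, was reached by 81 members in replicate 1 and 82 in replicate 2, and by 81 in both. Among all protein-coding genes 58.9% were detected in replicate 1 and 59.6% in replicate 2. The members together took 4.75% of all TPM in replicate 1 and 4.06% in replicate 2, but 1.85% and 1.67% of the counts, because their messages are short. Their median was 158 TPM in replicate 1 and 169.6 in replicate 2, where detected protein-coding genes had medians of 13.9 and 13.8. A level of 100 TPM or more was reached by 55 members in replicate 1 and 56 in replicate 2 (65.5% and 66.7%), against 6.96% and 6.65% of protein-coding genes. By mean TPM, 10 members lay above 1000, 45 between 100 and 1000, 21 between 10 and 100, 5 between 1 and 10, and 3 below 1.

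The level was unevenly spread over the members. Cox6a1, Atp5b and Cox8a alone gave 37.1% of the members' summed TPM in replicate 1 and 33.9% in replicate 2. For the 10 highest genes the shares were 62.9% and 60.1%. Cox6a1, a small subunit of complex IV, ranked at position 8 among all nuclear protein-coding genes by mean TPM, Atp5b at 14 and Cox8a at 16. On GRCm38 the annotation places Cox6a1 (ENSMUSG00000041697.8) at chr5:115345642-115348981 on the minus strand, Atp5b (ENSMUSG00000025393.8) at chr10:128083273-128090391 on the plus strand and Cox8a (ENSMUSG00000035885.4) at chr19:7215153-7217616 on the minus strand. The median subunit of complex III stood highest, with 523 TPM in replicate 1 and 452 in replicate 2. Complex II followed with medians of 235 and 228, then complex V with 161 and 207, complex I with 153 and 143, and complex IV with 142 and 114. The place of complex IV at the bottom of this order rests on its tissue-restricted partners: without the 8 such genes of the whole set, the medians of complex IV were 716 and 654 TPM, the highest of the 5. By summed TPM complex IV led in any case, with 18780 in replicate 1 and 14135 in replicate 2. Complex V summed to 13648 and 13228, complex I to 8403 and 7330, complex III to 5797 and 5056, and complex II to 887 and 838.

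**Figure D1:**
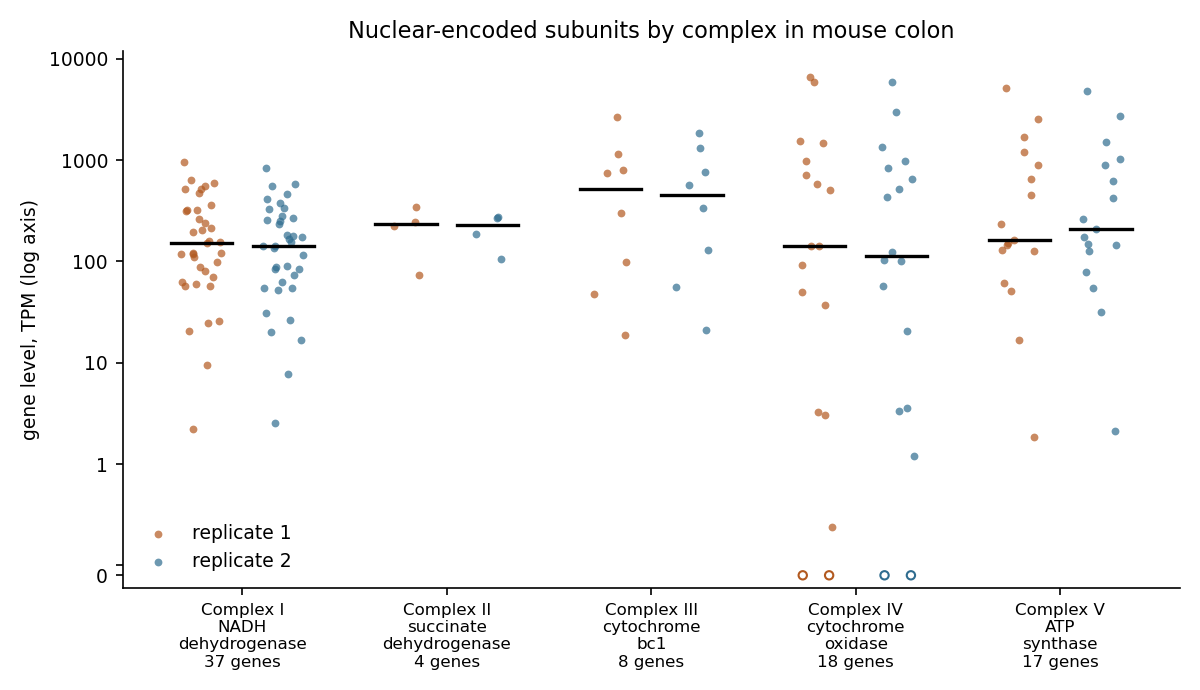
Gene level in TPM on a log axis for the 84 subunit genes, grouped by complex, with replicate 1 left of replicate 2 in each group; every point is 1 gene, the black bar is the median, and open circles mark genes listed at 0. Levels span a far narrower range in complex II than in the other complexes, and complex IV holds both the highest gene, with 6631 and 5959 TPM, and the 2 genes listed at 0.

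In complex I the NADH-oxidising and iron-sulfur core showed no common level. Ndufs7, which carries the last iron-sulfur cluster before ubiquinone, was the highest gene of the complex with 955 TPM in replicate 1 and 832 in replicate 2. Ndufs1, the largest iron-sulfur subunit, had 24.9 and 26.3 TPM, so 2 members of one electron path differed by far more than the libraries did. The 7 nuclear core genes had medians of 122 TPM in replicate 1 and 143 in replicate 2, while 158 and 149 were those of the 30 other members of the complex. Among these accessory genes Ndufa7 had 629 and 556 TPM and Ndufb8 588 and 582. The lowest members were Ndufa5, an accessory subunit of the peripheral arm, with 2.20 and 2.55 TPM, and Ndufa4l2, a relative of Ndufa4 known to be induced by low oxygen, with 9.48 and 7.81. Ndufa5 had 46 counts in replicate 1 and 60 in replicate 2, so its low level was seen with few reads in both libraries.

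Complex II, succinate dehydrogenase, has all its subunits encoded in the nucleus and was the most even of the 5. The membrane anchor Sdhd had 344 TPM in replicate 1 and 277 in replicate 2, the iron-sulfur subunit Sdhb 245 and 270, and the other anchor Sdhc 225 and 186. Sdha, the flavin-binding subunit that oxidises succinate, was lowest in both libraries with 73.4 and 105 TPM. The highest and the lowest mean of the complex differed 3.49-fold, against 376-fold in complex I, 114-fold in complex III and 2463-fold in complex V.

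In complex III the smallest subunits were the most abundant. Uqcr11 had 2659 TPM in replicate 1 and 1859 in replicate 2. Uqcr10 followed with 1137 and 1323. Uqcrc1, a core protein of the matrix side, had 790.7 and 762.1 TPM. Its partner in the core, Uqcrc2, had 47.8 and 56.2, the second lowest level of the complex. The catalytic Rieske iron-sulfur protein, Uqcrfs1, stood between them with 299 and 337 TPM. Uqcrb, which helps to bind ubiquinone, was lowest with 18.7 and 20.9 TPM, and both libraries gave Uqcrb, Uqcrc2 and Uqcrh as the 3 lowest members.

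Complex IV gave the clearest split between partner genes. For Cox6a, Cox4 and Cox8 the broadly expressed partner held nearly all of the level in both libraries. Cox6a1 had 6631 TPM in replicate 1 and 5959 in replicate 2, while Cox6a2, the partner of heart and skeletal muscle, had 0.24 and 1.21. Cox4i1 had 1529 and 1333 TPM, and Cox4i2, known from lung and from the response to low oxygen, had 3.28 and 3.36, or 0.214% and 0.251% of the pair. Cox8a had 5899 and 3012 TPM. Cox8b, of heart, skeletal muscle and brown fat, had 3.06 and 3.59 TPM, and Cox8c, of testis, was listed at 0 in both libraries. Cox7b had 141 and 124 TPM, and its testis partner Cox7b2 was also listed at 0. A count of 0 allows up to 3 counts, which would be 0.247 TPM in replicate 1 and 0.243 in replicate 2 for Cox7b2, and 0.309 and 0.301 for Cox8c. Such intervals and limits cover counting error only.

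Other positions of complex IV held a larger share of the restricted partner. Cox6b1 had 586 TPM in replicate 1 and 516 in replicate 2. Its partner Cox6b2, described as a testis form, had 37.0 and 20.4, which is 5.95% and 3.8% of the pair. Among the 3 Cox7a genes, counted here with Cox7a2l although it encodes an assembly factor, no single gene dominated. Cox7a2, the broad form, had 143 and 102 TPM, and Cox7a1, the form of heart and skeletal muscle, had 49.4 and 56.9. Cox7a2l had 92.8 and 104 TPM, so it lay below Cox7a2 in replicate 1 and just above it in replicate 2, and these neighbours in the order did not differ beyond the spread of the libraries. Cox7a1 stood at 17.4% and 21.7% of the 3 genes, far above the share of Cox6a2 (0.00362% and 0.0203%) or Cox8b (0.0518% and 0.119%), the other muscle forms, in their own groups. With Cox7a2l left out, Cox7a2 stood 2.89-fold above Cox7a1 in replicate 1 and 1.79-fold in replicate 2. Skeletal muscle markers had a sum of 113 TPM in replicate 1 and 63.9 in replicate 2, with 2 of 9 genes detected in both, Ckm at 79.9 and 53.6 and Acta1 at 31.98 and 7.99; 4 of the 9 were at 0 in replicate 1 and 2 in replicate 2. Heart markers summed to 4.49 and 4.48 TPM (2 of 5 detected), brown fat markers to 0.54 and 0.74 (0 of 4, with Ucp1 at 0.04 in both), and pericyte markers to 67.5 and 74.6 (5 of 6). Far higher than all of these was the smooth muscle list, with totals of 6870 TPM (replicate 1) and 6761 (replicate 2) and all 6 genes detected. The part of any of these cell types, smooth muscle included, in the level of Cox7a1 was not tested. In whole tissue, fewer cells of a type and less RNA per cell cannot be told apart.

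**Figure D2:**
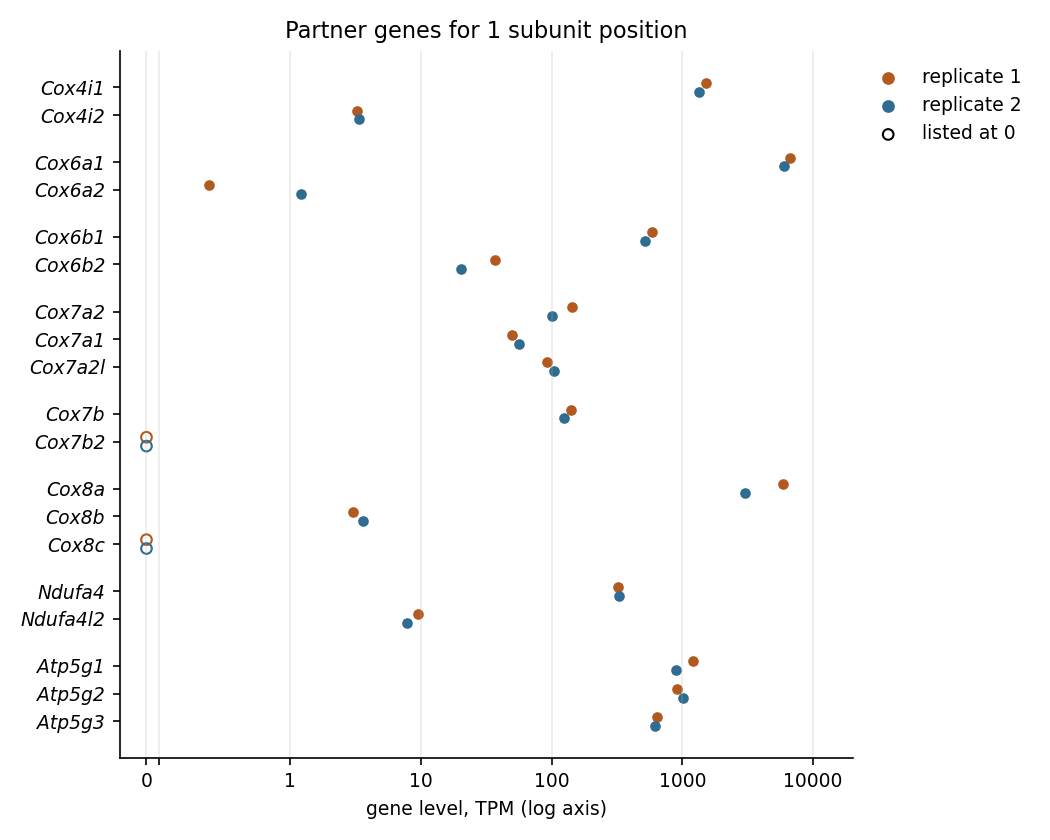
Level in TPM on a log axis of the partner genes that can fill 1 position in complex IV, of Ndufa4 and Ndufa4l2, and of the genes for subunit c of the ATP synthase, with replicate 1 drawn above replicate 2 for each gene; open circles mark genes listed at 0. The restricted partner lies far to the left for Cox4, Cox6a and Cox8 (Cox6a2 at 0.24 and 1.21 TPM, Cox6a1 at 6631 and 5959), and the partners lie close together for Cox7a and Atp5g. Cox7a2l, which encodes an assembly factor, is drawn with the Cox7a genes.

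Subunit c forms the rotating ring of the ATP synthase and is encoded by 3 genes, which are known to give the same mature protein behind different import peptides. All 3 were abundant. Atp5g1 had 1207 TPM in replicate 1 and 888 in replicate 2, Atp5g2 had 904 and 1018, and Atp5g3 had 645 and 617. Atp5g1 was highest in replicate 1 and Atp5g2 in replicate 2, so the order of these 2 genes is not settled by the libraries, while Atp5g3 was lowest in both. The shares of the trio were 43.8% and 35.2% for Atp5g1, 32.8% and 40.3% for Atp5g2, and 23.4% and 24.5% for Atp5g3. Over the whole coding sequence the genes were 67.4% to 68.9% identical in pairs. The last 225 coding bases before the stop codon are shown because they show how 3 genes for one protein can be told apart by reads. They come from the leading transcripts of GENCODE vM21 on GRCm38, each on the minus strand: Atp5g1 at chr11:96068852-96075670, Atp5g2 at chr15:102662864-102672352 and Atp5g3 at chr2:73908447-73911326 (spans of the genes). Capitals mark positions where the 3 genes do not all have the same base.
Atp5g1: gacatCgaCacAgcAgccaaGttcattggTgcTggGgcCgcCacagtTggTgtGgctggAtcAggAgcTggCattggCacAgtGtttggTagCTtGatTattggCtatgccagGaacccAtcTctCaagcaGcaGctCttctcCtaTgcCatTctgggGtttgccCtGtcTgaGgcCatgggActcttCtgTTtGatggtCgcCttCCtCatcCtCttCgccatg
Atp5g2: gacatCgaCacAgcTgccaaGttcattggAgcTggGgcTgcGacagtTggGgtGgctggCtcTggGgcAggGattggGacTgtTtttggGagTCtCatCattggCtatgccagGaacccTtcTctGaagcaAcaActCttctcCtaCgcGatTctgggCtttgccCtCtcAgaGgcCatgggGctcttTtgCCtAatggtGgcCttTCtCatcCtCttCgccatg
Atp5g3: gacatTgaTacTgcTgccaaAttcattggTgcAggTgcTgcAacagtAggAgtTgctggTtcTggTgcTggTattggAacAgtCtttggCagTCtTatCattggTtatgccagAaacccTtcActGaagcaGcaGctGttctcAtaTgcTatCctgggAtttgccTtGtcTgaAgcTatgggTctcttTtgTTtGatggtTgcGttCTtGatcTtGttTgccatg
Of the 225 positions 168 were equal in all 3 genes, and 52 of the 57 unequal ones were at the last base of a codon. The longest stretch equal in all 3 was 8 bases, and the libraries were read at 76 nt from both ends.

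By TPM over all transcripts, the catalytic head of the ATP synthase held the highest genes of complex V. Atp5b, the catalytic beta subunit, had 5102 TPM in replicate 1 and 4775 in replicate 2, Atp5d, the delta subunit of the central stalk, 2553 and 2751, and Atp5a1, the alpha subunit, 1705 and 1525. Atp5c1 (gamma) had 234 and 264 TPM and Atp5e (epsilon) 454 and 420. The 4 genes of the peripheral stalk, Atp5f1, Atp5h, Atp5j and Atp5o, had medians of 128 and 136 TPM, and the 4 small membrane subunits Atp5j2, Atp5k, Atp5l and Atp5mpl had 97.8 and 102. Atp5mpl had 16.96 and 31.5 TPM, and the coupling factor gene Atp5s was lowest with 1.87 and 2.14.

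For several of these genes the gene level was not the level of the message that encodes the protein. The transcript tables divide each gene's reads over its annotated transcripts, and Atp5b was the extreme case. Of its TPM, 66.2% in replicate 1 and 66.5% in replicate 2 lay on a processed transcript of 343 bases without a coding sequence, and 21.6% and 20.9% on a transcript with a retained intron. The full coding transcript had 548 TPM in replicate 1 and 545 in replicate 2. Noncoding transcripts took 89.3% and 88.6% of the TPM of Atp5b but 61.5% and 60.1% of its reads, since a short transcript needs few reads for a high TPM. Atp5a1 had 374 and 345 TPM on protein-coding transcripts, against 1705 and 1525 for the gene, and Ndufb10 had 39.1 and 47.4, against 317 and 259. Noncoding here stands for every transcript not annotated as protein-coding, which includes those marked for nonsense-mediated decay. In this sense, 11 of the 81 members with a mean of 1 TPM or more had over 10% of their TPM on noncoding transcripts in both libraries. For 3 of them it was over 50%, and 57 members had at most 5% in both. In Ndufs6 the whole share, 11.4% in replicate 1 and 24.3% in replicate 2, lay on transcripts marked for nonsense-mediated decay.

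Counting protein-coding transcripts only, an alternative chosen after seeing the data, lowered the sum of complex V most. That sum became 7651 TPM in replicate 1 and 7670 in replicate 2, lower than that of complex I in replicate 1 (7782) and higher in replicate 2 (6786). Complex IV still led with 18673 and 14030 TPM. The median of complex V was the same as over all transcripts (161 and 207 TPM), while that of complex I was 118 in replicate 1 and 134 in replicate 2, which put complex I below complex IV (141 and 113) in replicate 1 only. Cox6a1 (6584 and 5902 TPM), Cox8a (5899 and 3012) and Atp5d (2553 and 2751) were then the 3 highest members. The order within complex V changed too. Atp5b (548 and 545 TPM) and Atp5a1 (374 and 345) lay below Atp5g1 (1207 and 888), Atp5g2 (904 and 1018) and Atp5g3 (631 and 586). Whether the noncoding transcripts are stable RNAs or a division of reads by the estimate was not tested.

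**Figure D3:**
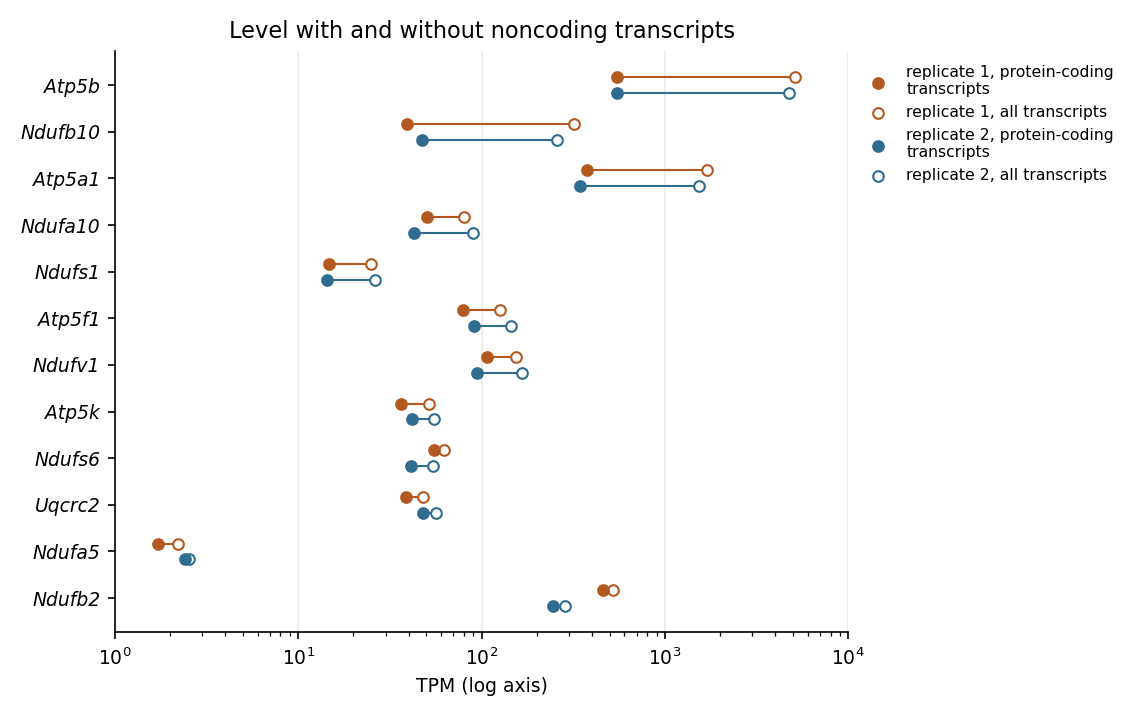
The 12 members with the largest mean share of TPM on transcripts not annotated as protein-coding (those marked for nonsense-mediated decay included), from the largest at the top; open circles give the gene's TPM over all transcripts and filled circles that of its protein-coding transcripts, on a log axis, with replicate 1 above replicate 2. Atp5b, Ndufb10 and Atp5a1 drop furthest, Atp5b to 548 and 545 TPM.

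Most members were carried by 1 transcript. The leading transcript had a median share of 98.0% in replicate 1 and 97.7% in replicate 2, at least 90% in 57 and 59 of the 81 members, and 25 members have 1 transcript in the annotation. Among members with a mean of at least 10 TPM, the lowest shares were those of Ndufs1 with 38.1% and 41.4%, Cox6b2 with 56.6% and 30.1%, Atp5j2 with 62.1% and 45.4%, Ndufa10 with 60.9% and 47.7%, and Atp5d with 48.8% and 60.98%. In Ndufs1 the leading transcript retains an intron. In Atp5d a form with 363 coding bases and one with 504 shared the level, the second with 50.8% in replicate 1 and 38.6% in replicate 2. The leading transcript carried the longest coding sequence of its gene in 69 of 81 members. Ndufv3 is a case where it did not: its short form, with 312 coding bases, had 94.7% and 92.9% of the gene's TPM, and the long form, with 1404, had 4.78% and 6.38%. The short form of Sdhc, with 405 coding bases, had 87.2% and 83.4%, against 12.3% and 14.3% for the form with 507. Atp5c1 was divided between forms of 891 and 894 coding bases, the first with 54.6% and 58.6%.

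The libraries were then set against each other. Counts of each gene, rounded to whole numbers, were compared by a two-sided exact binomial test with p-values adjusted over all 17713 genes tested, and a gene was called if its adjusted p did not exceed 0.05 and it differed by 2-fold or more. Such a test sees no error beyond counting, and what it compares are 2 libraries of 1 group. Because the libraries differ in Xist, Y-linked counts and tissue content, a difference between them cannot be told apart from one of sex or tissue. Of all genes tested 6.35% were called, and of protein-coding genes 4.57%. Of the 82 members tested 1 was called, Cox6a2, and the other 81 were not. Cox6a2 (ENSMUSG00000030785.7) lies at chr7:128205435-128206387 on the minus strand. Cox6a2 was counted 4 times in replicate 1 and 20 times in replicate 2, which gives a log2 ratio of -2.22 and, in the exact binomial test, an adjusted p of 0.00233. Calls with more in replicate 2 made up 3.81% of all genes tested and 2.77% of protein-coding genes, and calls with more in replicate 1, of which the members had 0, made up 2.55% and 1.8%. The 24 counts put 16.7% in replicate 1, with an exact Clopper-Pearson 95% interval of 4.74% to 37.4%, where equal levels would give 50.5%. The call did not hold in edgeR's exact test at the dispersion estimated from both libraries (unadjusted p = 0.0188, adjusted p = 0.673), which called 0 members (1 at an unadjusted p below 0.05), 1.35% of all genes tested and 0.797% of protein-coding genes, and Cox6a2 was not tested at a minimum summed count of 100. Beside it, the sum of skeletal muscle markers was 113 TPM in replicate 1 and 63.9 in replicate 2, and that of heart markers 4.49 and 4.48. The muscle list was divided: of its 4 tested genes, Ckm and Acta1 had more in replicate 1 (log2 ratios 0.55 and 1.98), and Myh2 and Tnnt3 more in replicate 2 (-1.47 and -1.21). Acinar, erythroid and adipocyte markers were higher in replicate 2, with the sums given above, and their part in any difference between the libraries was not tested.

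At any fold the exact binomial test separated the libraries for most members, 39 with more in replicate 1 and 24 with more in replicate 2, or 76.8% of those tested. The same held for 49.4% of all genes tested and 51.7% of protein-coding genes. The share was larger at depth: among protein-coding genes with 1000 or more counts in sum it was 66.3%, and among the 70 members of that depth 84.3%. With the 2-fold minimum, 0 of these 70 members and 1.03% of those protein-coding genes were called. The differences were mostly small, with 73 of 82 members within 1.5-fold (89.0%), against 81.5% of all genes tested and 85.6% of protein-coding genes. Among the 12755 protein-coding genes tested with a mean of at least 1 TPM the share was 92.0%, above that of the members. Across the 84 members log2(TPM + 1) of the libraries had a Pearson correlation of 0.991 and a Spearman correlation of 0.987, and across 12756 detected protein-coding genes 0.968 and 0.973. These are correlations across genes, which are not independent replicates. The 84 members include genes listed at 0 in both libraries, while the other set holds only genes with a mean of at least 1 TPM. The values are therefore of unlike sets.

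The median member was slightly higher in replicate 1. Its log2 ratio of scaled counts, replicate 1 over replicate 2, was 0.06, with 49 of 82 above 0, and the median of all genes tested was 0.00, with 49.5% above 0 (49.8% of protein-coding genes). Members with a mean of at least 100 TPM had a median of 0.12 (37 of 55 above 0), and the 1465 protein-coding genes of that level had 0.08 (924 above 0). The complexes did not share a direction. The medians were 0.16 for complex I (27 of 37 members above 0) and 0.14 for complex IV (10 of 16), 0.01 for complex II (2 of 4), -0.10 for complex V (7 of 17) and -0.21 for complex III (3 of 8). On protein-coding transcripts only, the median of complex V was -0.21 and that of complex I 0.15.

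The largest ratios with at least 100 summed counts were small beside those of the acinar genes. Toward replicate 1 they were those of Cox8a with 72212 counts in replicate 1 and 37495 in replicate 2 (log2 ratio 0.91), Ndufs5 with 656 and 359 (0.84), Ndufb2 with 4829 and 2865 (0.72), Cox7c with 8478 and 5244 (0.66) and Cox6b2 with 343 and 213 (0.66). Toward replicate 2 they were those of Atp5mpl with 96 and 188 counts (-0.997), Ndufa2 with 2720 and 4570 (-0.78), Sdha with 7009 and 9748 (-0.51), Uqcrh with 1191 and 1623 (-0.48) and Atp5o with 2982 and 3982 (-0.45). None of these reached the 2-fold minimum of the call. For Ndufs5, a pseudogene of 99.4% identity took 0 counts in replicate 1 and 41.1 in replicate 2, and the 2 genes together had a log2 ratio of 0.68. The X-linked members did not move as one between the libraries that differ in Xist: the log2 ratio was 0.38 for Ndufa1, 0.16 for Cox7b and -0.27 for Ndufb11, beside a median of -0.07 over 486 X-linked protein-coding genes.

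**Figure D4:**
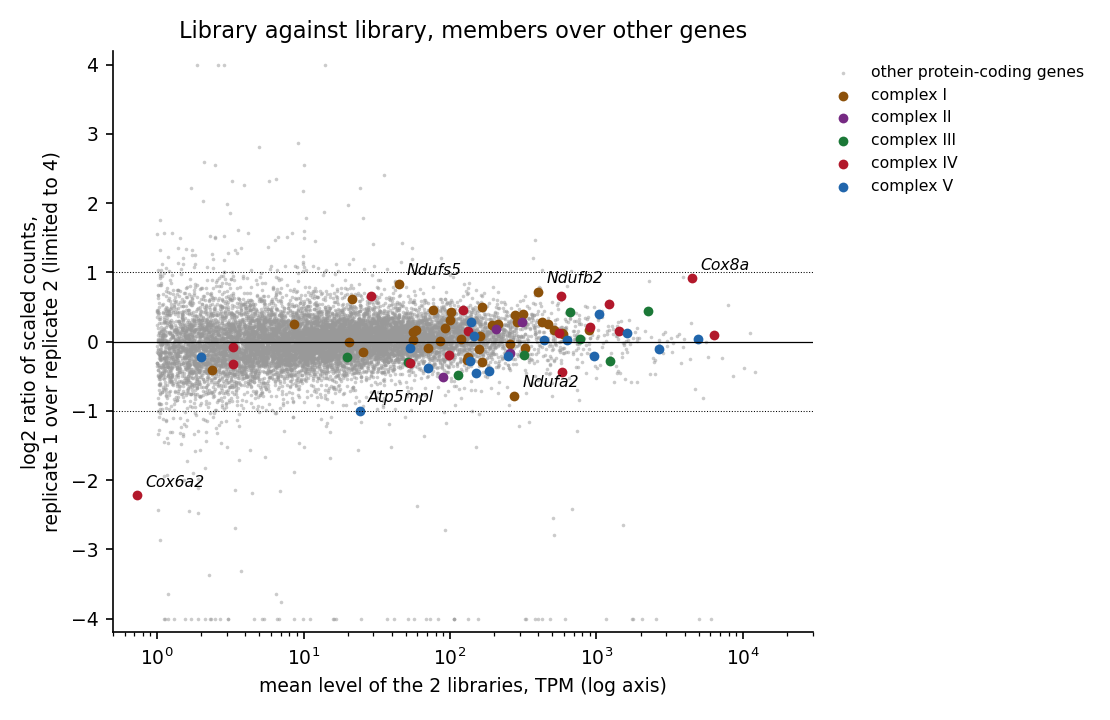
Log2 ratio of scaled counts, replicate 1 over replicate 2, against the mean TPM of both libraries on a log axis; coloured points are members by complex, grey points are other protein-coding genes with a mean of 1 TPM or more, values beyond 4 are drawn at 4, and dotted lines mark 2-fold. All members except Cox6a2 lie inside the 2-fold lines, and Cox6a2, at -2.22, has the lowest level of the members drawn.

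Short messages are a shared property of the members that the choice by symbol did not use. Their effective length, the part of a transcript in which a fragment can start, had a median of 518 bases, against 2092 for detected protein-coding genes, and 68 of the 84 (81.0%) were under 1000 bases, against 16.9%. Within the members length and level were weakly related, with a Spearman correlation of -0.19 over 81 members, against -0.27 over 12756 protein-coding genes. The median log2 ratio of the 38 members under 500 bases was 0.12, against -0.04 for the 497 protein-coding genes of that length. From 500 to 1000 bases it was 0.08 for 27 members, against 0.04 for 1657 genes, and from 1000 to 2000 bases 0.02 for 14 members, against 0.03 for 3877 genes. TPM and scaled counts gave opposite directions between the libraries for 5 of 82 members, Ndufb5, Ndufv1, Ndufv3, Ndufa10 and Atp5j2, each by less than 0.21 on the log2 scale between the 2 measures.

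Near-identical copies limit a few values. A copy was another annotated gene matching the member's highest protein-coding transcript at 90% identity or more over at least 50% of its length. By this rule 19 members had 33 copies. For Atp5b, Atp5a1, Ndufb10 and Ndufs1 the leading transcript is noncoding and was not searched. Among the copies found by this rule, only those of Ndufa12 and Ndufs5 took over 5% of the joint counts in at least 1 library. The rule does not cover all shared reads: Cox6a1, Atp5d and Cox5b had no copy by it, but their counts were not whole numbers in either library. The 4 copies of Atp5g1 summed to 352 counts in replicate 1 and 312 in replicate 2, beside 20568 and 15363 for the gene and its copies together. The copy of Ndufa12, a processed pseudogene, had 98.1 TPM in replicate 1 and 76.97 in replicate 2, higher than the gene itself with 59.3 and 52.1, so the level of Ndufa12 is uncertain. The rule found no copy of Ndufb4 and so missed Ndufb4c, which the annotation calls a pseudogene and which was chosen after its values were seen. Ndufb4c had 418 and 387 TPM, and Ndufb4 had 88.9 and 63.1. In counts, Ndufb4c had 2747 in replicate 1 and 2655 in replicate 2, and Ndufb4 had 2466 and 1754, so the level of Ndufb4 is uncertain too. Whether counting used the strand is not given in the sources used here, and 37 members share part of their span with another annotated gene, 25 of them with a protein-coding one. Over the high member Atp5d lies Cbarp, with 12.7 TPM in replicate 1 and 15.5 in replicate 2, and over the low member Ndufs1 lies the end of Eef1b2, with 461 and 448 TPM and an overlap of 9 bases.

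The mitochondrially encoded partners of these complexes gave 0.474 times the members' summed TPM in replicate 1 and 0.370 times in replicate 2 over 13 genes. By complex the ratio of mitochondrial to nuclear TPM was highest in complex IV, with 0.847 in replicate 1 and 0.729 in replicate 2, where 3 mitochondrial genes summed to 15908 and 10305 TPM. Of these mt-Co1, the catalytic subunit, had 9422 and 6455 TPM and mt-Co3 5115 and 2617. The ratio was 0.193 and 0.194 in complex I, led by mt-Nd1 with 495 and 416 TPM and mt-Nd4 with 468 and 479. It was 0.200 and 0.177 in complex III, whose mitochondrial subunit mt-Cytb had 1157 and 895 TPM, and 0.281 and 0.180 in complex V, where mt-Atp6 had 1513 and 1257. mt-Atp8, the shortest of these genes, had 2318 TPM in replicate 1 and 1127 in replicate 2 but a log2 ratio of scaled counts of -0.58, so the ratio of complex V depends on the effective length given to it. None of the 13 was called, where 6.35% of all genes tested were.

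Among the other genes of the pathway, the 50 assembly factors had a lower median than the subunits, with 21.7 TPM in replicate 1 and 18.3 in replicate 2, but some of them stood above most subunits. The highest were Coa3 with 757 and 658 TPM and Cox14 with 405 and 333, both for complex IV. Within the list of complex III, the highest were Uqcc2 with 135 and 87.3 and Uqcc3 with 24.1 and 22.3. Those of complex I were low, with a median of 6.67 and 6.45 over 15 genes, led by Ndufaf8 (70.5 and 78.3) and Ndufaf3 (40.3 and 36.2). For complex II the highest were Sdhaf1 (34.3 and 24.4) and Sdhaf2 (5.94 and 6.08), and for complex V Tmem70 (55.9 and 49.6) and Atpaf1 (53.4 and 37.5). Of 49 assembly factors tested, 0 were called higher in replicate 1 and 2 higher in replicate 2, Nubpl with 0.50 and 2.36 TPM and Sdhaf3 with 0.08 and 0.28. For these and the following counts, 6.35% of all genes tested and 4.57% of protein-coding genes were called. Calls higher in replicate 2 made up 3.81% and 2.77%. Of 12 regulators 1 was called, Tfb1m, a mitochondrial rRNA methyltransferase, with 0.47 TPM in replicate 1 and 1.26 in replicate 2. Esrra, a nuclear receptor that drives these genes, led the list with 260 and 245 TPM, followed by the mitochondrial RNA polymerase Polrmt with 64.0 and 69.7. These 3 calls were lost in edgeR's exact test, with adjusted p values of 0.916 for Nubpl and 1 for the others. The 14 Krebs cycle genes had medians of 103 and 114 TPM with 0 called, led by Mdh2, the mitochondrial malate dehydrogenase, with 515 and 523. The 4 subunits or carriers outside the symbol rule had 0 called, led by Ndufab1, an acyl carrier protein in complex I, with 771 and 915 TPM and by cytochrome c1, Cyc1, with 577 and 562.

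Promoters of the members held words of known regulators of respiration more often than promoters in general. Promoter windows from RefSeq on GRCm38.p6, 250 bases before to 50 after the start, matched 66 of the 84 members with 71 windows. The words searched, on both strands, were GCGCANGCG for NRF1, CCGGAAG for the ETS factors that include GABP, AAGATGGCG for YY1, CCAAT and TATAAA; the first 3 factors are known activators of subunit genes. The NRF1 word was in 29.6% of member windows, against 12.2% of 12789 windows of detected protein-coding genes and 6.25% of all 32851. The ETS word was in 22.5%, against 16.1% and 8.86%, and the YY1 word in 9.86%, against 2.81% and 1.40%. CCAAT was in 42.3%, against 36.6% and 37.4%, and TATAAA in 11.3%, against 7.37% and 13.6%. The windows had a median of 19 CpG in members, 20 in detected protein-coding genes and 7 in all. In the 250 bases before the start alone, the YY1 word was in 1.41% of member windows, against 1.09% and 0.606%, so nearly all its matches lay in the first 50 transcribed bases. A match is a description of letters and not a bound site, and no test was made of these shares.

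By complex the NRF1 word was found in 9 of 34 windows of complex I, 2 of 3 of complex II, 2 of 5 of complex III, 1 of 13 of complex IV and 7 of 16 of complex V. Members with the word had medians of 145 TPM in replicate 1 and 190 in replicate 2 (20 genes), and members without it 203 and 176 (46 genes), so the libraries did not give the same order. The 4 windows of tissue-restricted members, those of Cox6b2, Cox7a1, Cox7b2 and Cox8b, held 0 matches of the NRF1, ETS and YY1 words and had a median of 8.5 CpG. In the other 67 member windows the shares were 31.3%, 23.9% and 10.4%, with a median of 19 CpG. The lack of these words was not particular to restricted genes: in complex IV the windows of Cox5a, Cox5b, Cox7a2, Cox7a2l, Cox7b and Cox7c held none of them either. The 250 bases before the start are shown for 2 broadly expressed members with both words, Cox6a1 and Sdhd, and for 2 muscle forms of complex IV, Cox7a1 and Cox8b, to set the letters side by side. They lie at chr5:115348959-115349208 on the minus strand for Cox6a1, chr9:50603850-50604099 on the minus strand for Sdhd, chr7:30183921-30184170 on the plus strand for Cox7a1 and chr7:140900447-140900696 on the minus strand for Cox8b. Capitals mark any of the 5 words on either strand.
Cox6a1: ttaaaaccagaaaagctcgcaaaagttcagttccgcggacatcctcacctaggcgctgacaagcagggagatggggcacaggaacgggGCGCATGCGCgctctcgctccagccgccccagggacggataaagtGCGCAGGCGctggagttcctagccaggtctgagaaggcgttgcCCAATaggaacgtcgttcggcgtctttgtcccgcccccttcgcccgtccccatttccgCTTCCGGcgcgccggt
Sdhd: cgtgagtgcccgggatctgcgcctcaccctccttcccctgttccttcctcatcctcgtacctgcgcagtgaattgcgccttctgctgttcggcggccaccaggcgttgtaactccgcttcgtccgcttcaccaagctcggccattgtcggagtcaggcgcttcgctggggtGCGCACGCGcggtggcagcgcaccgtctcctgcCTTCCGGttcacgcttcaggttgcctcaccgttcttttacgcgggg
Cox7a1: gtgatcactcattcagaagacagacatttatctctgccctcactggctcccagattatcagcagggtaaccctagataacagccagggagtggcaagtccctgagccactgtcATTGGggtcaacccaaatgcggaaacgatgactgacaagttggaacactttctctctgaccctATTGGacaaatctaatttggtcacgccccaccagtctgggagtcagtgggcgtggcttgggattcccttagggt
Cox8b: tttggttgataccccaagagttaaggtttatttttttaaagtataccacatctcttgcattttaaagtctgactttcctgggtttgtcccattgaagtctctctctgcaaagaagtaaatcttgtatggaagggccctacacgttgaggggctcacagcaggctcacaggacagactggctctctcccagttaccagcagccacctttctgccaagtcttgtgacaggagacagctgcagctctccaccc
Cox6a1 has NRF1 words, 1 CCAAT word and, close to the start, the ETS word, with 26 CpG in the stretch. Sdhd has 1 NRF1 word and 1 ETS word among 27 CpG. Cox7a1 has 2 CCAAT words on the other strand and 4 CpG, and Cox8b has none of the 5 words and 1 CpG in the bases shown. The full Cox8b window, with the 50 bases after the start, does hold the TATAAA word, which is not wholly within the bases shown. The levels of the 4 genes were 6631 and 5959 TPM for Cox6a1, 344 and 277 for Sdhd, 49.4 and 56.9 for Cox7a1, and 3.06 and 3.59 for Cox8b. These 4 were picked, with Cox6a1 the only gene of complex IV with the NRF1 word, and a link between words and level was not tested.

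**Figure D5:**
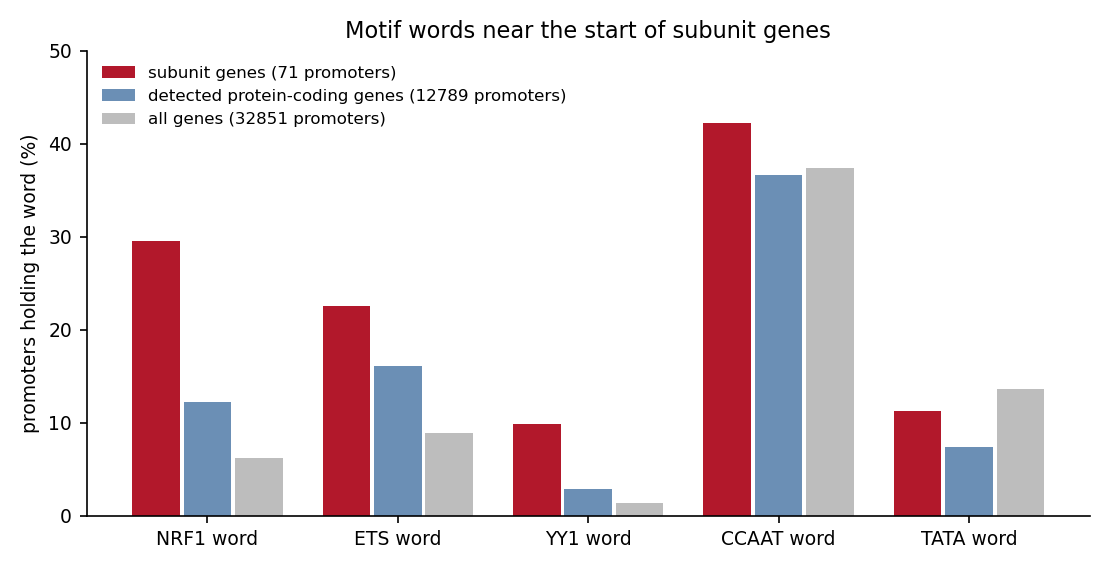
Percent of promoter windows that hold each word on either strand, for windows of the members, of detected protein-coding genes and of all genes in the table, with the number of windows in the legend. The bars of the members are highest for the NRF1, ETS, YY1 and CCAAT words, with 29.6% for NRF1, and stand between the other bars for TATAAA.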

How the data were processed

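Gene and transcript tables of 2 libraries were used, 46689262 expected counts in replicate 1 and 45966841 in replicate 2, which makes counting error small for most members. Per the file headers, the deposited tables hold expected counts and TPM for each gene and transcript, FPKM, effective lengths, and the percent of a gene's TPM on each transcript (isoform percent), in columns of the kind RSEM writes. Deposited FPKM values entered 1 alternative only. The build is mm10 with GENCODE M4, per the deposited file notes. Aligner and quantifier: not given in the sources used here, nor is the strand setting of the counting. Junction and contig files on mm9 were not used. Expected counts are a division of shared reads by a model, and TPM of short transcripts depends on the effective length.

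Symbols, coordinates, biotypes and coding sequences came from GENCODE vM21 by identifier without version, and promoters from RefSeq (GRCm38.p6). Genes with 10 or more counts in sum were scaled by edgeR's TMM and compared by a two-sided exact binomial test on rounded counts (scipy 1.17.1), with Benjamini-Hochberg adjustment over all genes tested. edgeR 4.0.16 (R 4.3.3) gave an exact test with dispersion estimated from both libraries, and DESeq2 1.42.0 other size factors. blastn 2.17.0 found copies, and Biopython 1.88 and pandas 2.3.3 (Python 3.11.15) the identities and tables. Of the steps, the binomial comparison was tested on simulated counts that held counting error only. Levels were set across both tables only through TPM. Replicate numbers come from the labels.

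Values per library are given for the 3 highest and 2 lowest members of each complex by mean TPM, partner genes, members called, those with a mean TPM under 1, the 5 largest log2 ratios in each direction at a summed count of at least 100, the 5 lowest leading-transcript shares at a mean TPM of at least 10, and, from pathway lists, the 2 highest genes and those called; 1 gene that this rule names is not reported here. Further members were named after their values were seen. The members and lists were chosen with earlier results of these data known. A comparison of protein sequences was planned, and the identity of coding bases is given instead. Alternatives tried were FPKM or posterior mean TPM in place of TPM, other size factors, count minimums, fold minimums, the edgeR test, rescaling to nuclear protein-coding genes, protein-coding transcripts only, and leaving out members or a library.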

Additional observations from a re-analysis of the deposited data

How the results depend on the processing

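Posterior mean TPM (13 values) and the sum of transcript TPM (6 values) moved no level or ratio beyond the spread between the libraries, and DESeq2 size factors, library totals and no minimum count changed neither the number of members called nor the side of 0 of the median log2 ratio. FPKM gave the same 12 ratios, apart from rounding in the tables, by construction, since it is proportional to TPM within a library. Rescaling TPM over nuclear protein-coding genes gave medians of 173.8 TPM for complex I, 271 for complex II, 571 for complex III, 149.9 for complex IV and 192 for all members. Protein-coding transcripts only, an alternative chosen after seeing the data, gave 126 for complex I, 226.5 for complex II and 149 for all members. Relative to the median of all members, leaving out the tissue-restricted genes gave 0.777 for complex I, 1.18 for complex II, 2.48 for complex III, 3.49 for complex IV and 0.949 for complex V, which puts complex IV above that median and complex V below it. With members of whole counts in both libraries only, these ratios were 1.02 for complex I, 0.567 for complex IV and 0.973 for complex V, which puts complex I above the median and complex V below it. The number of members called, 1 as reported, was 0 at a minimum summed count of 100, 0 in edgeR's exact test, 9 at a minimum of 1.5-fold and 63 with no minimum. Of all genes tested, 6.35% were called as reported and 49.4% with no minimum. The share of all genes called at 1.5-fold was not computed, but 89.0% of members and 81.5% of all genes tested lay within 1.5-fold. Of protein-coding genes with a mean of at least 1 TPM, 92.0% did. Using replicate 1 or replicate 2 alone, the median of all members ranged from 158 to 169.6 TPM; with 2 libraries, the value of 1 alone always lies within their spread, so this shows nothing of stability. No paired analysis was possible because there is 1 group and its 2 libraries have no partners. With 2 libraries, the spread of a member has 1 degree of freedom, so levels that differ less than the libraries do are not ordered here. Members under about 100 counts, such as Ndufa5 and Cox6a2, are limited by depth. The share of promoters with the YY1 word was 1.41% in the upstream part alone.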
